A study of Mus musculus with 6 samples.

Results

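The Prss genes of the mouse encode serine proteases with the trypsin fold. Members were taken by name, as the protein-coding genes of GENCODE M21 whose symbol is Prss followed by a number. There were 39 of them among 55487 identifiers in the table of read counts, 21974 of which were protein-coding, and they lay on 11 chromosomes. The rule uses names and gene type only. Levels were measured by sequencing of polyadenylated RNA from whole testes of mice at postnatal day 19, in 2 groups of 3 libraries. The group labelled control has no other genotype in the labels. The group labelled dsfb carries, by the title of the series, SFB alleles of Hormad1 and of Hormad2 in homozygous form. The 3 libraries of a group are testes of separate mice by the design text, so n = 3 counts animals. The labels state neither strain nor litter, nor what the SFB alleles change.

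Trypsin-like serine proteases cut proteins with a catalytic serine that works together with a histidine and an aspartate. Many are made as inactive precursors, and many are tethered to membranes by a GPI anchor or by a membrane-spanning end. In the male germ line a large set of Prss genes is transcribed in spermatocytes and spermatids, and several of the proteins are found in the acrosome or on the sperm surface. Other members act elsewhere: the pancreatic trypsins in digestion, Prss8 (prostasin) in epithelia, Prss12 (neurotrypsin) at synapses, Prss34 in mast cells and Prss28 and Prss29 in the uterus.

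The control libraries held 23983373 to 27707291 counts and the dsfb libraries 15335130 to 17306363. Where values are listed by library, they stand in the order of replicates 1, 2 and 3. A level is given in CPM, the count scaled to a common library size, with library sizes adjusted by TMM. Markers of pachytene spermatocytes and spermatids were lower in dsfb and those of Sertoli cells higher. The summed level of 14 markers of mid to late pachytene spermatocytes was 9931 to 13104 CPM in control and 559 to 598 CPM in dsfb. That of 16 spermatid markers was 119, 120 and 1155 CPM in control replicates 1, 2 and 3 and 18.4 to 19.6 CPM in dsfb. For 15 Sertoli cell markers it was 2883 to 3913 CPM in control and 6992 to 7386 CPM in dsfb. Control replicate 3 therefore stood apart. It had 9.69 times the spermatid level of the mean of the other controls, 1.24 times their pachytene level and 0.773 times their Sertoli level. For 10 markers of early meiotic prophase, summed in the same way, the ratio was 0.568. In whole testes, fewer cells of a type and less RNA per cell cannot be told apart. The part of cell composition in the differences below was not tested.

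Most Prss genes transcribed in the control testes fell in dsfb, and a small group rose. Of the 39 members 23 passed the filter on low counts and were tested, of which 14 fell, 5 rose and 4 did not pass (edgeR quasi-likelihood test, adjusted p under 0.05). Over all 19826 genes tested 36.2% fell and 30.7% rose, 66.9% in all. The balance over all genes depends on scaling, with 6126 falls and 8187 rises under upper-quartile scaling and 5732 and 8936 with library size only, against 7176 and 6080 here, while 14 members fell and 7 rose under either. The median log2 fold change (dsfb over control) of the tested members was -2.77, against 0.02 for all tested genes. Of the 23 tested members 10 fell by at least 16-fold, a fall found in 10.5% of all 19826 tested genes. In 9 of the 14 that fell at least 1 dsfb library held fewer than 10 counts. These were Prss21, Prss39, Prss40, Prss43, Prss46, Prss47, Prss54, Prss56 and Prss58. They entered the test through the control group, which favours a fall. The levels of control and dsfb libraries did not overlap for 14 members with control above dsfb (38.5% of all tested genes) and for 7 with dsfb above control (36.2%). Without control replicate 3 the counts were again 14 and 5 of 23, with 38.4% of all genes lower and 33.2% higher (71.6% in all).

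**Figure D1:**
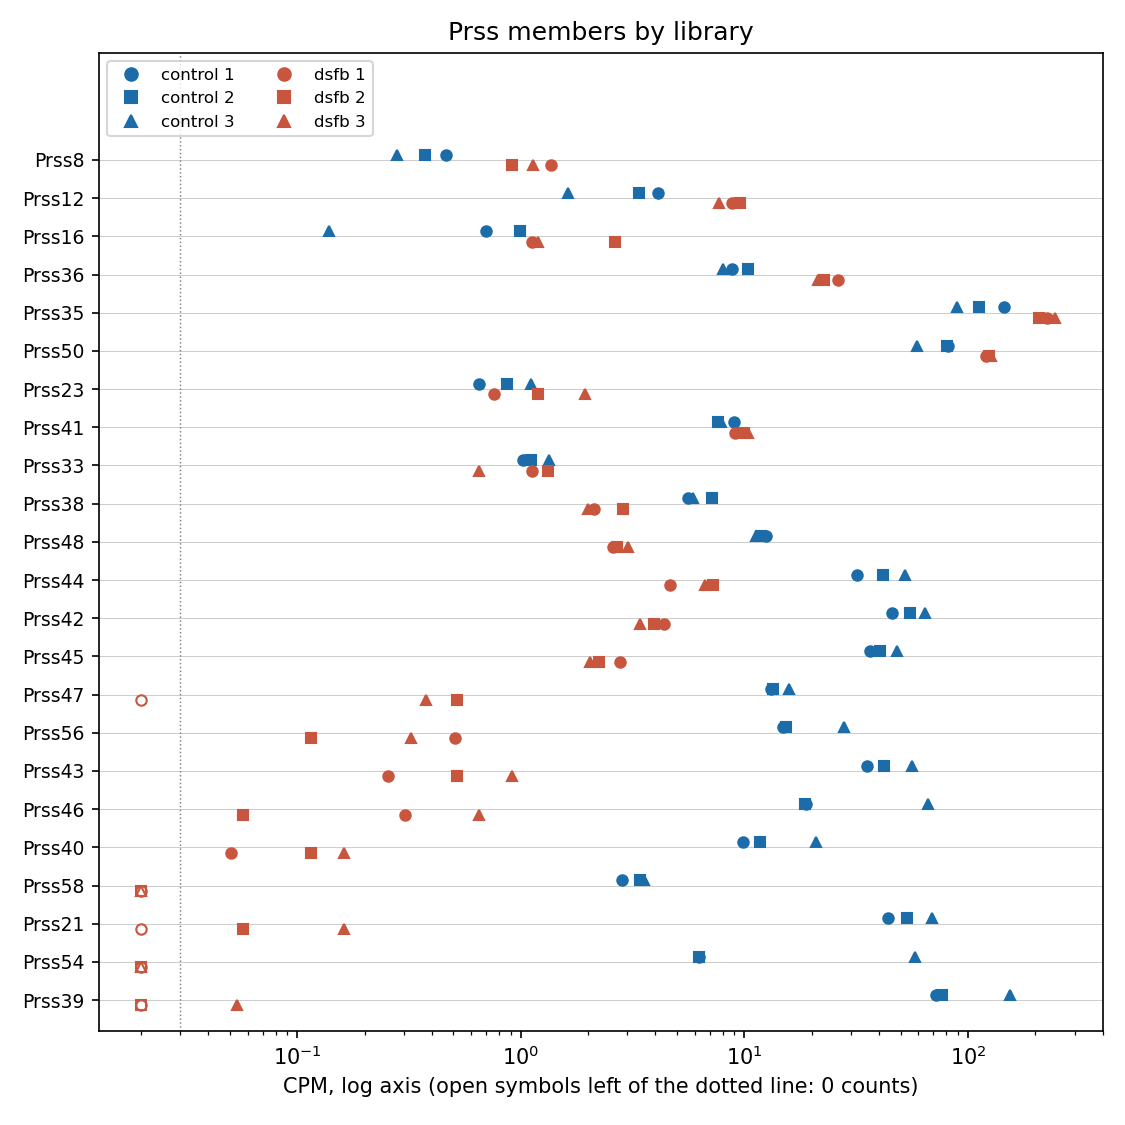
Level of the 23 tested Prss members in each of the 6 libraries, in CPM on a log axis, ordered from the largest fall (bottom, Prss39) to the largest rise (top, Prss8). Blue symbols are control and red symbols dsfb libraries, open symbols left of the dotted line stand for 0 counts, and the 14 members from Prss39 up to Prss38 show every control library above every dsfb library.

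The members known from testis and sperm made up most of the falls. Of 16 such genes 12 were tested, 10 fell and 1 rose, with a median log2 fold change of -6.48. Over all tested genes 36.2% fell and 30.7% rose. Of the 9 members that entered the test through the control group, all but Prss47 and Prss56 are among these falls. The count and the median therefore lean towards falls, and the list was drawn up with earlier results of these data known. The summed level of the 16 genes was 394, 438 and 682 CPM in control and 141, 148 and 152 CPM in dsfb. All control libraries lay above all dsfb libraries, with control replicate 3 the highest.

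Prss39 and Prss40, which encode proteases of the acrosome, lie 40.9 kb apart on chromosome 1. Prss39 (chromosome 1, 34498410 to 34503063, plus strand, mm10) was at 71.9, 76.5 and 155 CPM in control and had 0, 0 and 1 counts in dsfb. Against 6742 control counts this is a 5576-fold difference, for which counting error alone gives a 95% interval from 1000 to 220262. The single dsfb count was in replicate 3, and without that library there was none in dsfb. Prss39 thus went from a high level to a trace. Prss40 (chromosome 1, 34543968 to 34560943, minus strand) was at 9.87, 11.8 and 21 CPM in control and at 0.0508, 0.115 and 0.162 CPM in dsfb. It fell 124-fold (log2 -6.96, SE 0.50, edgeR adjusted p = 1.64e-05), and 13.7% of its exonic bases overlap Cfc1 on the opposite strand. For both genes control replicate 3 was the highest library, at 2.09 and 1.93 times the mean of the other controls.

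Prss21 encodes testisin, a GPI-anchored protease of spermatocytes and spermatids that acts in sperm maturation. It lies at 23868056 to 23873114 on chromosome 17 (plus strand). Its level was 44.1, 53.6 and 69.3 CPM in control and 0, 0.0574 and 0.162 CPM in dsfb, which is 3740 counts against 4. The log2 fold change was -9.48 (SE 0.45, edgeR adjusted p = 2.07e-06), or -8.88 without dsfb replicate 1 and -10.71 without dsfb replicate 3. Prss41, another testis member of the same group of genes on chromosome 17, gave 548 counts in control and 546 in dsfb. The number of Prss21 counts per Prss41 count was therefore 4.88, 7.05 and 8.8 in the control libraries and 0, 0.00571 and 0.0155 in dsfb.

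Prss58 and Prss54 had no count in any dsfb library. Prss58 (chromosome 6, 40895270 to 40900387) was low and even among the controls, at 2.84, 3.43 and 3.57 CPM. With a floor of 3 counts over the dsfb group, which covers counting error only, it was at least 60.9-fold lower. The bound was 58.4-fold when control replicate 3 was left out. Prss54 (chromosome 8, 95559069 to 95576340), whose protein acts in the shaping of the acrosome, was at 6.28, 6.28 and 57.8 CPM in control. It was at least 423-fold lower by the same floor, and the bound was 116-fold when control replicate 3 was left out (edgeR adjusted p = 0.00404 for Prss54 and 7.58e-05 for Prss58 with all libraries). Prss54 was thus unequal among the controls and Prss58 was not.

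A row of 6 members on chromosome 9 moved in both directions. Prss42, Prss44, Prss43, Prss45, Prss46 and Prss50 follow each other on the plus strand within 66.5 kb (110798166 to 110864629), with no more than 10.2 kb between neighbours. The first 5 all fell, and Prss50, which starts 1.44 kb after the end of Prss46, rose. None of the 6 shares a stretch of 50 bases with a transcript of any other gene in GENCODE M21, so reads of that length could be told apart.

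Prss42, Prss43 and Prss44 encode membrane-linked testis proteases that have been linked to the survival of spermatocytes. Prss42 was at 45.8, 54.8 and 64.2 CPM in control and at 4.37, 3.96 and 3.40 CPM in dsfb, a 14-fold fall (log2 -3.81, SE 0.18, edgeR adjusted p = 2.04e-06). Prss44 was at 32.0, 41.7 and 52.5 CPM in control and at 4.67, 7.23 and 6.64 CPM in dsfb, and fell 6.81-fold (log2 -2.77, SE 0.25, edgeR adjusted p = 5.09e-05). It was the smallest fall of the row. Prss43, between Prss44 and Prss45, was at 35.4, 42.3 and 56.5 CPM in control and at 0.254, 0.516 and 0.918 CPM in dsfb. Its fall was 79.1-fold (log2 -6.31, SE 0.40, edgeR adjusted p = 8.66e-06). In each of the 3 genes the lowest control library was replicate 1 and the highest replicate 3, and all lay far above dsfb.

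Prss45 and Prss46 complete the part of the row that fell. Prss45 was at 36.5, 40.6 and 48.4 CPM in control and at 2.79, 2.24 and 2.05 CPM in dsfb (log2 -4.14, SE 0.20, edgeR adjusted p = 1.88e-06). Prss46 was at 18.9, 18.7 and 66.5 CPM in control and at 0.305, 0.0574 and 0.648 CPM in dsfb (log2 -6.65, SE 0.81, edgeR adjusted p = 0.000256). Prss46 was the member of the row with unequal controls, and its log2 fold change was -5.79 without control replicate 3 and -7.47 without dsfb replicate 3. Prss42 to Prss45 differed from library to library within control by no more than 1.45 times between replicate 3 and the mean of the others.

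Prss50 encodes a testis protein of the family with a threonine in the place of the catalytic serine. It was at 81.2, 80.3 and 59.4 CPM in control and at 120, 124 and 127 CPM in dsfb. The rise was 1.68-fold (log2 0.75, SE 0.13, edgeR adjusted p = 0.0015), with every dsfb library above every control library, and it was 0.58 on the log2 scale without control replicate 3. The summed counts of Prss42 to Prss46 were 2.08, 2.47 and 4.85 times those of Prss50 in the control libraries and 0.103, 0.113 and 0.107 times in dsfb. Of the 5 tested genes that are no Prss members and lie within 100 kb of the row, 4 rose and 0 fell (median log2 fold change 0.87). Over all tested genes 30.7% rose and 36.2% fell, and an effect of the region was not tested. Pth1r, the parathyroid hormone receptor gene upstream of the row, rose by 1.33 (SE 0.19) and Tmie, downstream of Prss50, by 1.22 (SE 0.23) on the log2 scale.

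**Figure D2:**
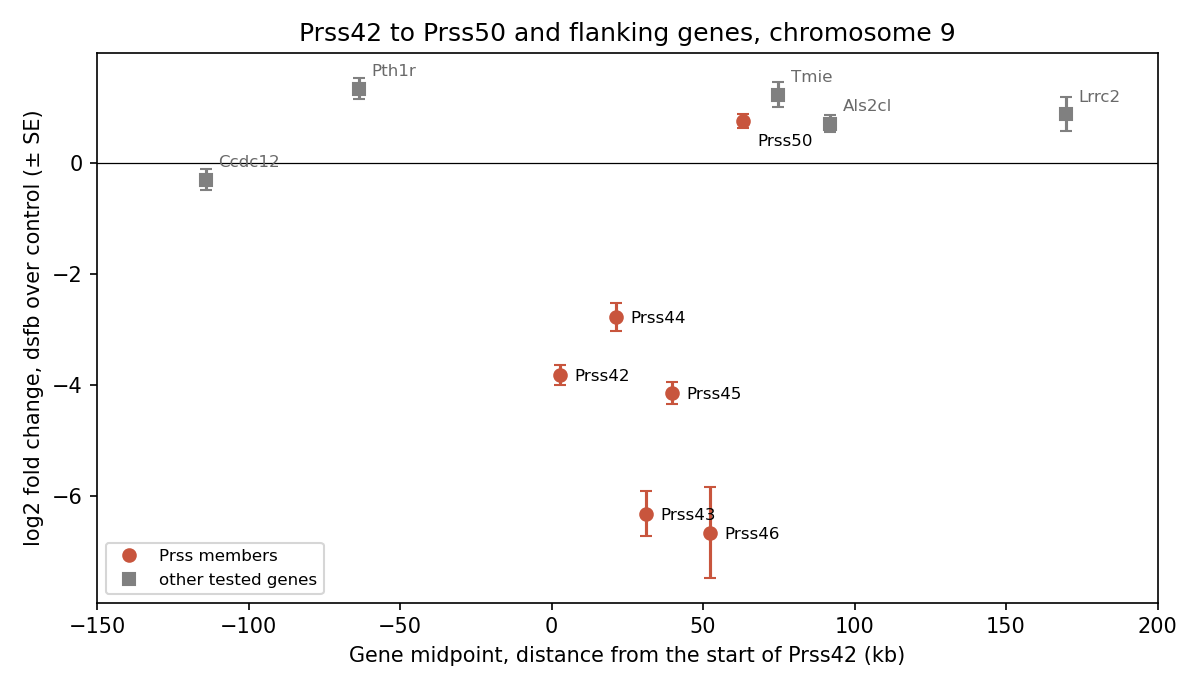
Log2 fold change (dsfb over control, with SE) against the distance of each gene's midpoint from the start of Prss42 in kb, for the 6 Prss members (red) and the 5 other tested genes within 100 kb (grey). Prss42 to Prss46 lie between -6.65 and -2.77, while Prss50 at 0.75 lies among the 4 flanking genes that rose (0.70 to 1.33) and Ccdc12, which did not pass, is at -0.31.

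The start regions of these genes are shown because neighbours that moved apart can be compared there, and because Prss39 and Prss40 moved alike. Neither reason covers Prss38, which lies alone on chromosome 11 and whose window holds the letters marked below. RefSeq (GRCm38.p6) gave a promoter window for 29 of the 39 members, including 11 of the 14 that fell. Prss8, Prss16, Prss22, Prss43, Prss44, Prss48, Prss51, Prss52, Prss55 and Prss57 had none. Each line runs 5′ to 3′ from 80 bases before to 20 bases after the transcription start, and capitals mark the letters CACGTG, the E-box bound by many helix-loop-helix factors.
Prss39: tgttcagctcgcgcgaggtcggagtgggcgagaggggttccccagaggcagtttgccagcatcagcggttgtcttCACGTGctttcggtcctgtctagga
Prss40: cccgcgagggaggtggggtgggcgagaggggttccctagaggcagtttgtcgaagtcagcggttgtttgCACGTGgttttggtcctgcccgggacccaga
Prss42: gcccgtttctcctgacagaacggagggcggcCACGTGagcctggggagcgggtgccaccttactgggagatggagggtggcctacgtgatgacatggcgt
Prss45: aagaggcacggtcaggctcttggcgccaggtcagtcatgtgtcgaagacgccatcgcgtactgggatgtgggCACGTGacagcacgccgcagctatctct
Prss46: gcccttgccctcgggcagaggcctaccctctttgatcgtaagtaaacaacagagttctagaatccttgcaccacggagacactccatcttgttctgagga
Prss50: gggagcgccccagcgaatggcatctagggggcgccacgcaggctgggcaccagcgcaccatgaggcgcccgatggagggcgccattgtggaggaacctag
Prss38: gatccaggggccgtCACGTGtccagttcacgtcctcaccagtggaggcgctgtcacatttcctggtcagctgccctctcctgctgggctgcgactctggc

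The windows are chr1:34498332-34498431 (plus) for Prss39, chr1:34560924-34561023 (minus) for Prss40, chr9:110798105-110798204 (plus) for Prss42 and chr9:110834508-110834607 (plus) for Prss45. They are chr9:110844426-110844525 (plus) for Prss46, chr9:110857884-110857983 (plus) for Prss50 and chr11:59375634-59375733 (minus) for Prss38. Prss39 and Prss40 share a run of 19 bases, gtgggcgagaggggttccc, and no other pair of these windows shares more than 9. The lines shown hold every member with CACGTG and are thus no even sample of the falls. Prss21, Prss47, Prss54, Prss56 and Prss58, which fell and have windows without it, are not shown. The E-box was looked for after the sequences had been seen. Full windows ran from 250 bases before to 50 after the start, and CACGTG reads the same on both strands. In these the E-box was in 5 of the 11 members that fell, Prss38, Prss39, Prss40, Prss42 and Prss45. The windows of Prss39 and Prss40, which share the run above, are not independent. The E-box was in 0 of the other 18. Of these 4 rose and the rest were not called or not tested, some having no count in any library. Of 27025 windows, 1 for each gene, 7.24% held the E-box. The share was 8.63% for all genes that fell and 10.4% for all genes that rose. Of 3 motifs from a list of factors of male germ cells, searched on both strands, CAGTTG (the core bound by MYB factors) was in 4 of 29 members, 0 of them among the 11 that fell, and in 13.6% of all windows. TGACGTCA (the cyclic AMP response element) was in 0 of 29 members and in 1.88% of all windows, and the motif of RFX factors in 0 of 29 and in 0.551%. Matches of letters are no evidence of binding, and windows without a match say nothing about the factors.

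Prss37, Prss55, Prss51 and Prss52 were seen almost only in control replicate 3. Prss37 and Prss55 encode sperm proteins needed for the maturation of ADAM3 and the passage of sperm into the oviduct, and Prss55, Prss51 and Prss52 lie together on chromosome 14 (64075438 to 64113755). Prss37 had 5, 0 and 131 counts in control replicates 1, 2 and 3 and Prss55 had 0, 0 and 230. Prss52 had 3, 1 and 47 counts and Prss51 had 0, 0 and 13. All 4 had 0 counts in the 3 dsfb libraries, where a count of 0 allows up to 0.152 to 0.172 CPM. Control replicates 1 and 2 were thus at or near the dsfb level for these genes, and the difference between groups rests on a single library. The filter on low counts, which asks for a minimum level in at least 3 libraries, left them out of the test. With no filter beyond 1 read Prss37, Prss52 and Prss55 passed (edgeR adjusted p = 0.0173, 0.0175 and 0.0275) and Prss51 did not (0.126), and with a mean of at least 1 CPM Prss55 did not pass (edgeR adjusted p = 0.0934).

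The members formed a graded series among the control libraries. Control replicate 3 was at 0.925 to 0.93 times the mean of the others for Prss38 and Prss48 and at 1.14 to 1.45 times for Prss58, Prss47, Prss45, Prss42, Prss44, Prss21 and Prss43. It was at 1.83 to 2.09 times for Prss56, Prss40 and Prss39, at 3.53 times for Prss46 and at 9.21 times for Prss54. For Prss52 and Prss37, with 4 and 5 counts in the other controls, the ratios were 24.1 and 52.2. For comparison the ratio was 1.24 for the summed pachytene markers and 9.69 for the summed spermatid markers, and its median over all tested genes was 0.998. A ratio of at least 2 was found in 8.64% of all tested genes. The called rises lay on the other side, with 0.434 for Prss12, 0.665 for Prss8, 0.694 for Prss35, 0.736 for Prss50 and 0.833 for Prss36.

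**Figure D3:**
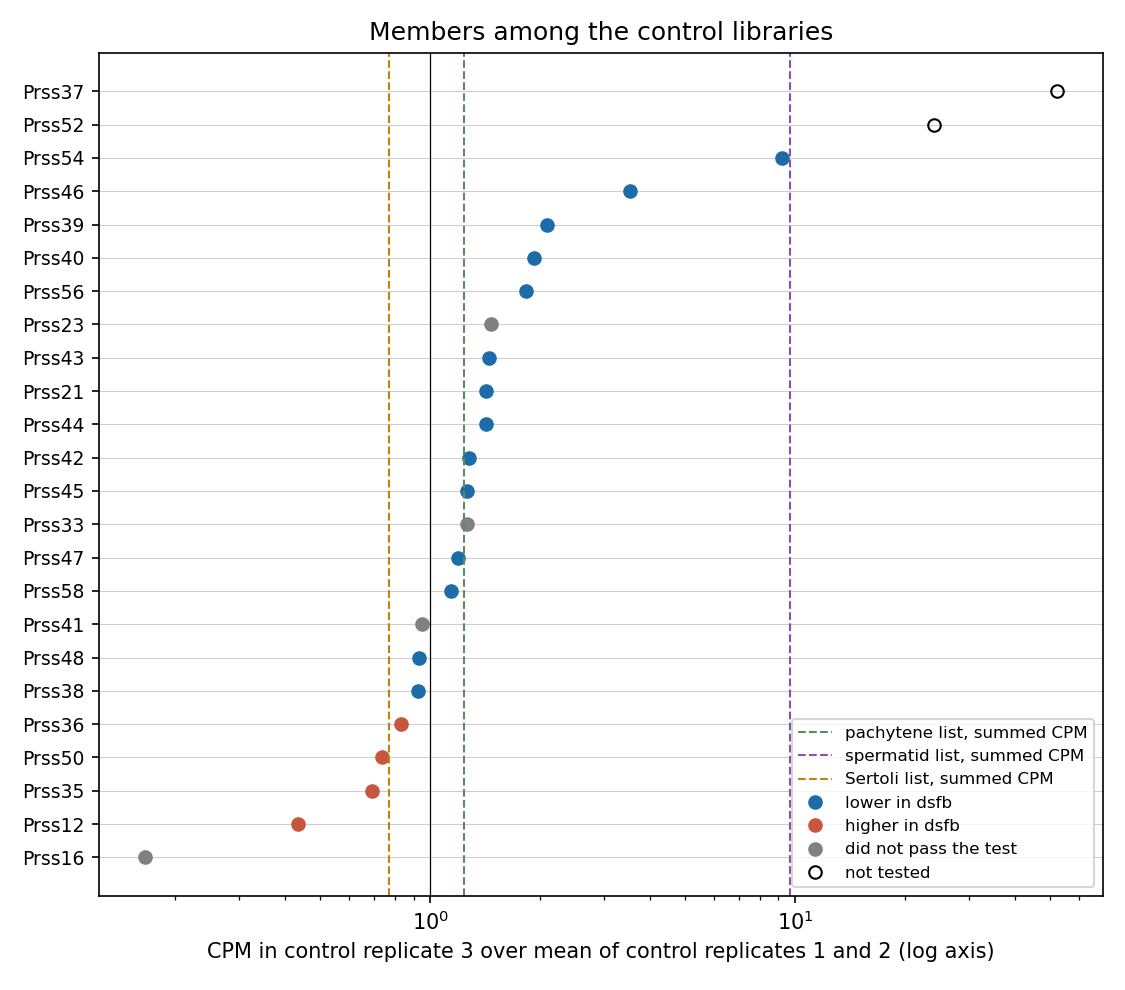
Level in control replicate 3 over the mean of control replicates 1 and 2 (log axis) for the Prss members with at least 40 counts in control, apart from Prss55 (0 counts in replicates 1 and 2), coloured by the dsfb against control call. Dashed lines give the same ratio for summed marker lists, at 0.773 for Sertoli cells, 1.24 for pachytene spermatocytes and 9.69 for spermatids.

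Prss48, Prss38 and Prss47, which belong to none of the tissue classes used here, fell as well, as did Prss56. Prss48 (chromosome 3, 85993810 to 86002491) was at 12.5, 11.9 and 11.3 CPM in control and at 2.59, 2.70 and 3.02 CPM in dsfb, a 4.28-fold fall with little spread (log2 -2.10, SE 0.19, edgeR adjusted p = 5.06e-05). Prss38 (chromosome 11, 59372669 to 59375657) was at 5.58, 7.14 and 5.89 CPM in control and at 2.13, 2.87 and 2.00 CPM in dsfb, and its 2.66-fold fall was the smallest of the 14 (edgeR adjusted p = 0.0014). A share of 13.1% of its exonic bases overlaps an antisense gene. Prss47 (chromosome 13, 65044606 to 65052760) was at 13.1, 13.4 and 15.8 CPM in control and at 0, 0.516 and 0.378 CPM in dsfb. Its log2 fold change of -5.57 (SE 0.67, edgeR adjusted p = 0.00025) was -4.95 without dsfb replicate 1 and -6.20 without dsfb replicate 2.

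Prss56 (chromosome 1, 87183313 to 87188405) is known for its role in the growth of the eye. In the testis libraries it was at 14.9, 15.4 and 27.8 CPM in control and at 0.508, 0.115 and 0.324 CPM in dsfb. It fell 59.3-fold (log2 -5.89, SE 0.49, edgeR adjusted p = 3.76e-05). It was the only fall among the 4 members classed here as secreted proteases of ovary, brain and eye, of which 2 rose and 1 did not pass.

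The rises were smaller than most falls, from 1.68-fold to 3.04-fold. Prss35, a secreted protein related to proteases of the ovary, had the largest rise in CPM. It was at 145, 112 and 89.3 CPM in control and at 225, 207 and 246 CPM in dsfb (log2 0.97, SE 0.17, edgeR adjusted p = 0.00179). Every dsfb library lay above every control library. In the same libraries 14 of 15 Sertoli markers rose and 0 fell, with a median log2 fold change of 1.06. Markers of other cell types moved as well. Of spermatogonia, 7 of 10 markers rose and 1 fell (median 0.73), while over all tested genes 30.7% rose and 36.2% fell. Their summed level was nevertheless lower in dsfb, at 746 to 928 CPM in control and 498 to 559 CPM in dsfb. Dmrtb1, the 1 that fell, went from 554 to 45.3 CPM. Of 10 markers of early meiotic prophase 2 fell, 3 rose and 5 did not pass (median -0.48). Without control replicate 3 the early prophase list had 6 falls and 4 rises (median -0.72). Rises were also called for 4 of 6 markers of peritubular myoid cells (0.96), 5 of 7 of macrophages (0.81) and 3 of 8 of Leydig cells (0.60), with no fall in these last 3 lists. Insl3, a Leydig marker that rose, had 14, 7 and 25 control counts and entered the test through the dsfb group, which favours a rise. The part of these other cell types in the rises of Prss genes was not tested. Set against the summed Sertoli markers of its own library, Prss35 was at 3.71%, 3.15% and 3.10% in control and at 3.21%, 2.80% and 3.52% in dsfb. On this scale, chosen after the values had been seen, the groups overlapped. Clu alone gave 1456 to 2046 CPM of the Sertoli sum in control and 3442 to 3788 CPM in dsfb. The share of all genes without overlap on this scale was not computed. On the same scale Prss50 was lower in dsfb, at 2.08%, 2.26% and 2.06% in control and 1.72%, 1.67% and 1.82% in dsfb.

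Prss36 and Prss8 lie 2.53 kb apart on chromosome 7, and both rose. Prss36, a secreted enzyme with several protease domains (127932638 to 127946725), was at 8.84, 10.4 and 8.02 CPM in control and at 26.3, 22.7 and 21.4 CPM in dsfb. This 2.58-fold rise (log2 1.37, SE 0.17, edgeR adjusted p = 0.000279) left the groups well apart. Against the summed Sertoli markers it was at 0.226%, 0.293% and 0.278% in control and at 0.376%, 0.307% and 0.305% in dsfb, without overlap. The nearest values were 0.293% and 0.305%. Prss8, the gene of the GPI-anchored epithelial protease prostasin, was low, at 0.465, 0.372 and 0.278 CPM in control and 1.37, 0.918 and 1.13 CPM in dsfb (log2 1.61, SE 0.36, edgeR adjusted p = 0.00549). With 10, 9 and 6 control counts it entered the test through the dsfb group, which favours a rise. Against the summed Sertoli markers Prss8 was at 0.0119%, 0.0105% and 0.00965% in control and at 0.0196%, 0.0124% and 0.0162% in dsfb. The groups did not overlap, but the nearest values, 0.0119% and 0.0124%, rest on 10 and 16 counts. It overlaps Kat8 on the opposite strand by 6.6% of its exonic bases. Kat8 was far more abundant and moved the other way (log2 -1.57, SE 0.12, edgeR adjusted p = 2.63e-05). Within 100 kb of these genes and of Prss53, which had 4 counts in control and 5 in dsfb, 7 of 11 other tested genes rose and 2 fell. Over all tested genes 30.7% rose and 36.2% fell. Neighbours of other groups of members differed. By Prss39 and Prss40, 3 of 7 fell and 0 rose, and by the group with Prss21, 6 of 14 fell and 4 rose. By Prss34, 2 of 6 fell and 1 rose, by Prss55, 1 of 2 fell, and by Prss1, 2 of 2 rose.

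Prss12, the gene of neurotrypsin, which cleaves agrin, rose on chromosome 3 (123446913 to 123506597). It was at 4.10, 3.39 and 1.62 CPM in control and at 8.79, 9.58 and 7.72 CPM in dsfb (log2 1.52, SE 0.34, edgeR adjusted p = 0.00525), or 1.19 on the log2 scale without control replicate 3. Against the summed Sertoli markers Prss12 was at 0.105%, 0.0954% and 0.0563% in control and at 0.126%, 0.130% and 0.110% in dsfb, without overlap. The nearest values were 0.105% and 0.110%. It shares 6% of its exonic bases with an antisense gene.

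For Prss41, Prss33, Prss23 and Prss16 no difference was called. Prss41, a GPI-anchored testis protease, was at 9.03, 7.60 and 7.88 CPM in control and at 9.04, 10 and 10.4 CPM in dsfb (log2 0.27, SE 0.18, edgeR adjusted p = 0.21). The groups touched but did not overlap, and the gene passed as higher with upper-quartile scaling and with library size as the only scaling (edgeR adjusted p = 0.0253 and 0.0133). Its neighbour Prss33, 0.728 kb away, was at 1.02, 1.11 and 1.34 CPM in control and 1.12, 1.32 and 0.648 CPM in dsfb (log2 -0.18, SE 0.35, edgeR adjusted p = 0.672), with a sign that turned with the scaling. Prss16, known from the thymus, was at 0.698, 0.991 and 0.139 CPM in control and at 1.12, 2.64 and 1.19 CPM in dsfb (log2 1.41, SE 0.64, edgeR adjusted p = 0.083), and passed with those scalings (0.0439 and 0.0335). Prss23 was between 0.652 and 1.94 CPM in all 6 libraries (log2 0.57, SE 0.42, edgeR adjusted p = 0.26), and 22.9% of its exonic bases overlap Prss23os on the opposite strand.

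The trypsins of the pancreas and the members known from uterus and mast cells were absent or at a trace. Prss1 and Prss3, trypsins of the pancreas, Prss28 and Prss29 of the uterus and Prss34 of mast cells had no count in any library, and the pancreatic Prss2 had 1. Prss1 and Prss3 share 54.9% and 66.1% of their 50-base stretches with other genes of the trypsin group, so their counts are uncertain. The same holds for Prss53, which shares 74.4% with Gm21974 on its own strand. Prss22, Prss27, Prss30, Prss32, Prss53 and Prss57 had between 3 and 13 counts in either group except Prss30 in dsfb, which had 1. Markers of the exocrine pancreas summed to 2.29 to 3.08 CPM and those of mast cells and neutrophils to 1.26 to 4.03 CPM over the 6 libraries, with the mast cell markers Fcer1a at 0 and Ms4a2 at 1 count in all. Of the 2 tested markers of that list Mpo fell (167 counts against 2, edgeR adjusted p = 0.000466) and Prtn3 rose (17 against 57, edgeR adjusted p = 0.011). Mpo entered the test through the control group, which favours a fall, and Prtn3 through the dsfb group, which favours a rise. Epididymis markers summed to 0.289 to 1.24 CPM, and Lcn5, Lcn9 and Lcn10 had no count.

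The order of levels within the family changed between the groups. On a scale of CPM per kb of exon, Prss39 had the highest mean in control (75.9 ± 35, SD, n = 3), followed by Prss50 (50.6 ± 8.47), Prss42 (34.7 ± 5.83), Prss45 (33.9 ± 4.92) and Prss35 (33.5 ± 8.18). The first place rests on control replicate 3: by library Prss39 was at 54, 57.4 and 116 and Prss50 at 55.8, 55.2 and 40.8 CPM per kb. Prss42, Prss45 and Prss35 lay within each other's spread. In dsfb Prss50 (84.9 ± 2.51) and Prss35 (65.6 ± 5.71) came first and differed by more than their SDs. They were followed at a distance by Prss36 (7.28 ± 0.785), Prss41 (3.72 ± 0.270) and Prss12 (3.34 ± 0.359), while Prss39 was at 0.0135 on the same scale. Prss35 and Prss50 together made up 37.6%, 31.3% and 17.6% of the Prss counts in control replicates 1, 2 and 3 and 82.7% to 85.3% in dsfb. The share of the library taken by the whole family was 0.0595 ± 0.00987% for control and 0.0477 ± 0.0028% for dsfb (SD, n = 3). An exact two-sided permutation test of this share gave p = 0.1, the smallest that 3 against 3 allows, so the design could not reach 0.05. The difference of -0.0118 percentage points was -0.00612 without control replicate 3 and -0.0271 with TMM-scaled library sizes. The number of members with at least 10 counts was 22 to 25 per control library and 14 to 16 per dsfb library, which also differ in depth.

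**Figure D4:**
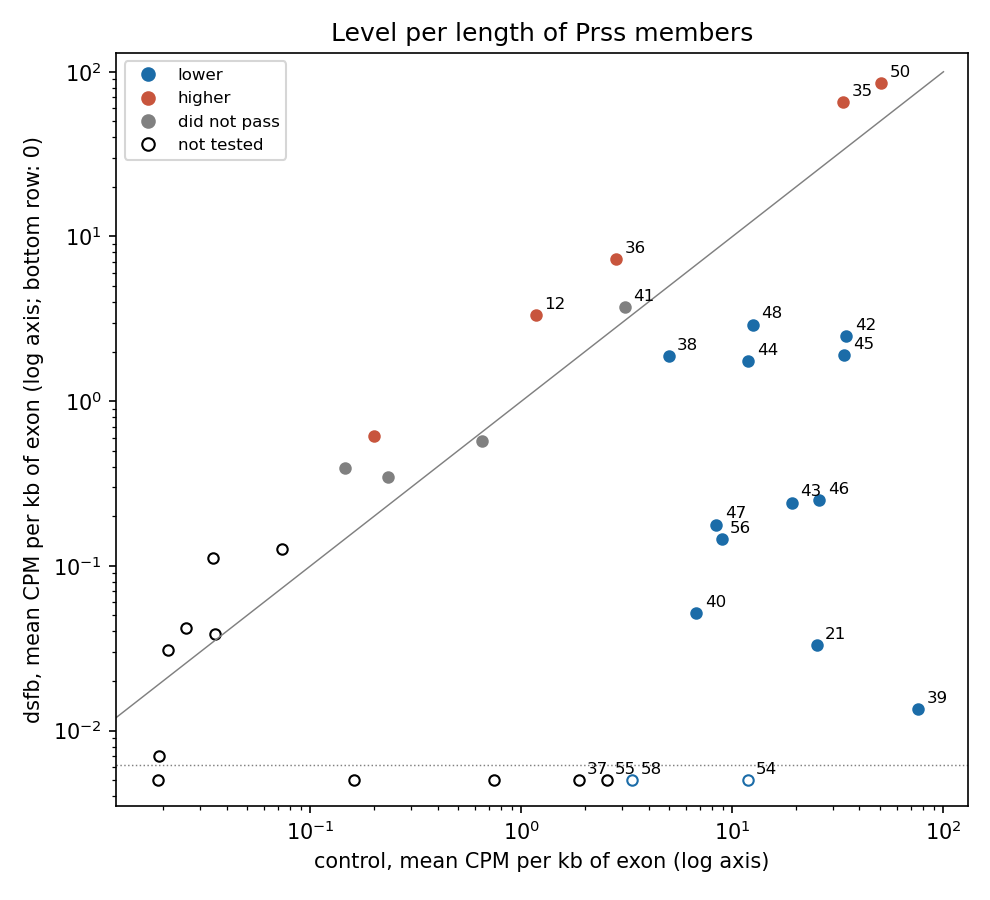
Mean level of each Prss member in control and dsfb, in CPM per kb of exon on log axes, with members without any control count left out and members at 0 in dsfb on the bottom row. Numbers are the digits of the gene symbol, and Prss50 and Prss35 (50.6 and 33.5 in control, 84.9 and 65.6 in dsfb) stand above the grey line of equality while Prss39 drops from 75.9 to 0.0135.

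Other genes of the same biology were read from lists chosen with earlier results of these data known. Over all tested genes 36.2% fell and 30.7% rose. Of 15 acrosome genes all 15 fell (median log2 fold change -7.62, or -6.70 without control replicate 3). Among them Acr, Acrv1, Hyal5, Spaca3, Spaca4, Spaca7, Spam1 and Zp3r held fewer than 10 counts in at least 1 dsfb library. These entered the test through the control group, which favours a fall. The log2 fold change was -7.62 (SE 0.19) for Zpbp2 and -3.77 (SE 0.13) for Zpbp, which encode proteins of the acrosomal matrix, and -5.86 (SE 0.20) for Dkkl1. Among 17 genes tied to ADAM3 maturation and the oviduct passage of sperm 9 fell and 0 rose (median -2.00). Of these Adam3, Cmtm2a, Cmtm2b, Pdilt and Rnase10 entered through the control group in the same way. Adam3 went from 636 ± 141 to 0.109 ± 0.0594 CPM (SD, n = 3), Lypd4 fell by 6.79 (SE 0.22) on the log2 scale, and Cmtm2b had 1 count left in dsfb. Without control replicate 3 the median of this list was -0.69, with 10 falls and 1 rise.

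Serine proteases outside the Prss names moved in both directions. Of 10 tested 3 fell and 5 rose (median 0.58), while over all tested genes 36.2% fell and 30.7% rose. Habp2 (1, 3 and 3 control counts) and Hpn (5, 4 and 15) rose but entered through the dsfb group, which favours a rise. Of the falls Acr, with 2, 5 and 14 dsfb counts, entered through the control group, which favours a fall. Acr, the gene of acrosin, fell from 128 ± 41.9 to 0.381 ± 0.337 CPM, the membrane protease gene Tmprss12 from 43.4 ± 3.50 to 2.91 ± 0.887 CPM and Pcsk4, a proprotein convertase of germ cells, from 137 ± 52.1 to 15.7 ± 1.83 CPM (SD, n = 3). Of 17 tested genes from a list headed inhibitors of serine proteases 10 rose and 3 fell (median 0.83). The list was not limited to proven inhibitors. Its rises include Serpinh1, Serpinf1 and Crim1, for which no such activity is claimed here. Spink2, an inhibitor of acrosin made in germ cells, fell from 313 ± 33.8 to 1.04 ± 0.404 CPM (log2 -8.24, SE 0.22, edgeR adjusted p = 2.02e-07), and Serpinb6a fell by 0.91 (SE 0.08) on the log2 scale. Wfdc10 rose from 53.6 ± 4.26 to 118 ± 12.2 CPM. Genes that build the GPI anchor, which several Prss proteins carry, showed no common direction. Of 28 tested 5 fell, 7 rose and 16 did not pass (median 0.10). Among the rises Pigz, with 6, 4 and 3 control counts, entered through the dsfb group. Pigc went from 39.7 ± 1.62 to 20 ± 1.03 CPM, Pigf from 25.6 ± 3.01 to 13.7 ± 1.05 CPM and Pgap2 from 29.9 ± 2.59 to 57.5 ± 3.19 CPM (SD, n = 3).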

How the data were processed

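The deposited table holds raw counts per gene (unit counts) for 6 testis libraries, 3 per group. Per the labels' protocols RNA was extracted with TRIzol and libraries were made with a NEBNext Ultra kit, and the submitters' processing notes name STAR 2.6.0 and mm10. No source used here names the counting tool, its annotation or its strand setting, so values of genes that overlap on opposite strands are uncertain. Symbols, positions and exons come from GENCODE M21 (GRCm38), which held 55227 of 55487 identifiers.

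All genes were fitted together with edgeR 4.0.16 in R 4.3.3: filterByExpr by group, TMM scaling, glmQLFit and glmQLFTest with group as the only term, and Benjamini-Hochberg adjustment over 19826 genes with a threshold of 0.05. CPM use TMM-scaled library sizes. SE is the log2 fold change over the root of F. Genes with 0 dsfb counts are given as bounds (floor of 3 counts over the group), those with 1 to 3 as ratios with exact 95% intervals for counting error only. The fit was tested on simulated counts, where it missed most of the smallest changes.

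Members and lists were chosen with earlier results of these data known. All 39 members are reported, and of each list up to 3 genes with the smallest p. Alternatives were other scalings, filters, DESeq2 1.42.0, limma-voom 3.58.1, a replicate block and leaving out each library. Level per length divides CPM by the union of exons. The list entries Prss59 and Equatn matched no symbol.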

Additional observations from a re-analysis of the deposited data

How the results depend on the processing

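In 312 of 320 values of tested members under an alternative, direction and side of the threshold were those of the main setting. The number of members that fell was 14 under RLE, upper-quartile and library-size-only scaling, with a mean of at least 1 CPM, with limma-voom and without any 1 library, 17 with no filter beyond 1 read and 13 with DESeq2, which gave no adjusted p for Prss54. The number that rose was 5, or 7 with upper-quartile or library-size-only scaling and 4 with a mean of at least 1 CPM. Those 2 scalings moved the median of all genes from 0.02 to 0.30 and 0.41, with 8187 rises and 6126 falls or 8936 rises and 5732 falls against 6080 and 7176, and no filter gave 4869 and 8839. Prss33 changed sign, to 0.10 with upper-quartile scaling, 0.22 with library size only and 0.08 without dsfb replicate 3 (range without 1 library -0.38 to 0.08). Whether the replicate numbers pair the libraries could not be decided. Deviations of same-numbered libraries correlated at 0.071, 0.061 and 0.116, which is weak, but each library correlated best with its own number. With the number as a replicate block 14 members fell and 6 rose, Prss16 being added (edgeR adjusted p = 0.0256). Depth limits the members under 1 CPM, and the floor of 3 counts was 0.124 to 0.172 CPM per library.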
